A study of Schizosaccharomyces pombe with 12 samples.

Results

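The 86 genes described here lie at the 2 ends of chromosome II of fission yeast, *Schizosaccharomyces pombe*. They are those rows of the table of 7004 genes whose identifier carries the name of one of 8 clones of the chromosome ends, apart from 6 rows that were left out by name. The left end has 45 members, from clones SPBC1348, SPBPB8B6, SPBPB21E7, SPBPB10D8 and SPBC1683, and the right end has 41, from clones SPBCPT2R1, SPBPB2B2 and SPBC1289. No measured value was used to choose them.

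RNA was sequenced from 12 cultures, 3 of each of 4 haploid strains, grown in rich YES medium at 32 °C in 250 ml to log phase. The *thc1*Δ strain (mating type h-, with the markers *his3-D1*, *ura4-D18*, *leu1-32* and *ade6-M216*) has the *his3* gene in place of *thc1*, and the strain called h- WT here carries the same markers without that deletion. The *bmc1*Δ strain (mating type h+, with *his3-D1*, *ura4-D18*, *leu1-32* and either *ade6-M210* or *ade6-M216*) has the natMX6 cassette in place of *bmc1* and is a haploid from a sporulated diploid. The strain called h+ WT here has the markers of *bmc1*Δ without that deletion. Thc1 and Bmc1 are proteins of the fission yeast telomerase complex, and RNA was sequenced to ask which transcripts change when either is missing. Each deletion is 1 strain, so that the effect of the gene and of any other difference between 2 strains cannot be told apart, and h+ WT and h- WT differ in labelled mating type, in *ade6* alleles and in descent.

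The genes next to a telomere are packaged into heterochromatin, in which nucleosomes carry methylated histone H3 lysine 9 and bind HP1 proteins such as Swi6, and their transcription is kept low. Fission yeast chromosome ends hold blocks of sequence that are repeated from one end to another, among them genes for RecQ-type helicases, and farther in lie genes for nutrient transport and catabolism that respond to starvation. The innermost clone of the right end, SPBC1289, is different: the annotation places there genes for splicing factors, a subunit of the vacuolar proton pump, the Ran GTPase and other proteins that growing cells need at all times.

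Repeats limit what uniquely aligned reads can show at these ends, and the printed sequences show how far. The reads were 84 bases long, and in the RefSeq genome ASM294v3 34 of the 86 members (39.5%) had under 50% of their 84-base exon windows at only 1 place in the genome, against 182 of 6665 genes of the table (2.73%). There were 18 such members at the left end and 16 at the right end, and 51 of the 86 members were unique in every window. The following windows are the first 84 coding bases of a gene and its copy at the opposite end, both for a protein with a Vel1p domain, and are shown because no base differs (SPBC1348.06c at 16509 to 16592, minus strand, and SPBPB2B2.15 at 4496373 to 4496456, plus strand, of chromosome II in ASM294v3).
SPBC1348.06c: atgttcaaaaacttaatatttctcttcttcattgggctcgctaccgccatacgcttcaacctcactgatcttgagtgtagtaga
SPBPB2B2.15: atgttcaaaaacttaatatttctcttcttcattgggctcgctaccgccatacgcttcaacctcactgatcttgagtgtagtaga

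Over their whole coding length of 612 bases these 2 genes had 0 differences. The next pair, uncharacterized genes at the 2 ends, differed at 4 of 693 coding bases, and 375 of 610 windows were identical. In the window shown a read has only a single base to tell these 2 genes apart. That base does not make the window of SPBC1348.07 unique, which occurs at 3 places in the genome. The window of SPBPB2B2.14c occurs at 1 place. Capitals mark the base that differs (SPBC1348.07 at 19641 to 19724, plus strand, and SPBPB2B2.14c at 4493239 to 4493322, minus strand, of chromosome II in ASM294v3).
SPBC1348.07: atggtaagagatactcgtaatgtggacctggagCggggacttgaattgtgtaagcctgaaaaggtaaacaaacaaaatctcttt
SPBPB2B2.14c: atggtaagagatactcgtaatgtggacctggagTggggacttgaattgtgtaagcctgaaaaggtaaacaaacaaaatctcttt

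Repeats also occur within 1 end. A row of transporter genes of the left end, SPBPB10D8.04c to SPBPB10D8.07c, shares its first 84 coding bases, which occur at 4 places in the genome (here the copy in SPBPB10D8.04c, 92780 to 92863 of chromosome II, minus strand).
SPBPB10D8.04c: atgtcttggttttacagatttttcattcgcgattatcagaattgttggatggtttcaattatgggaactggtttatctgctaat

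By contrast, the first coding windows of *aes1* (SPBPB21E7.07, left end, 70204 to 70287, plus strand) and *nrg1* (SPBPB2B2.01, right end, 4458010 to 4458093, plus strand), the members whose differences between strains recur below, each occurred at only 1 place.
SPBPB21E7.07: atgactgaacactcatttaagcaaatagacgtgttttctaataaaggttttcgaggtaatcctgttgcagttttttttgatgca
SPBPB2B2.01: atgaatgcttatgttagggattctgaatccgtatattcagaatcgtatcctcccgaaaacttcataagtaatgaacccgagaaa

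Library totals ranged from 33.57 to 40.33 M counts and the TMM factors that correct for composition from 0.98 to 1.0251. The *thc1* gene itself had 726, 744 and 735 counts in *thc1*Δ, against 1950, 1881 and 1829 in h- WT, and *bmc1* had 552, 555 and 558 counts in *bmc1*Δ, against 895, 1050 and 933 in h+ WT. Both deleted genes thus had lower counts in the strain labelled as their deletion, although neither was at 0. The paper reports that PCR verified both deletions and that its RNA sequencing coverage had no reads at the deleted loci. Where on these genes the remaining reads lie was not tested here. Of the marker genes of M (h-) cells, *mam1* averaged 80.9 CPM (counts per 1000000 counts of the library, after TMM) in h+ WT and 86.3 CPM in h- WT, and of those of P (h+) cells *map2* averaged 4.64 CPM in h+ WT and 5.42 CPM in h- WT. *mfm2*, an M marker, had 73, 347 and 57 counts in h+ WT, against 774, 834 and 866 in h- WT, which was the widest gap between the wild types among 7 mating-type genes. *bmc1*Δ replicate 1, also labelled h+, had 490 counts of it, against 65 and 67 in the other *bmc1*Δ libraries, so that the labelled mating types are named here as labels only.

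Most of the outermost members had few or no counts, with exceptions at the right end. The 11 outermost members of the left end had at most 15 counts in any library, and all 11 had under 50% of windows unique. At the right end all of the 15 outermost members were below that limit of uniqueness too, and 11 of them had at most 10 counts in any library, but *tlh2* had 39 to 269, SPBCPT2R1.04c 17 to 98, SPBCPT2R1.07c 4 to 48 and SPBPB2B2.18 5 to 30. In all, 15 members were at 0 in all 12 libraries (17.4%, against 314 of 7004 genes, 4.48%), 10 at the left end and 5 at the right end, and 14 of them had no unique window. A count of 0 in the smallest library allows up to 0.0894 CPM (3 counts, counting error only). SPBPB21E7.05, an uncharacterized gene of the left end, was the only one of the 15 whose windows were all unique, so it could have been counted. Conversely, 4 members with no unique window in ASM294v3 had up to 30 counts. The reads were aligned to ASM294v2, which was not used here, and whether the builds differ at these genes was not tested.

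Levels per kilobase were compared as the median over the 12 libraries. The left end had a median over its 45 members of 2.87 CPM per kb and the right end one of 2.61 CPM per kb over 41 members, against 27.3 CPM per kb over 6861 genes of the table. Within the right end the 15 members of clone SPBC1289 had a median of 38.6 CPM per kb and the other 26 members one of 0.385 CPM per kb, and within the left end the 10 members of clone SPBC1683 had a median of 19.4 CPM per kb and the other 35 one of 0.222 CPM per kb. Among members with 50% or more of windows unique and outside clone SPBC1289, the medians were 10.3 CPM per kb over 27 members at the left end and 4.62 CPM per kb over 10 members at the right end. The left-end set still holds the 10 members of clone SPBC1683, whereas the right-end set is without its innermost clone. These medians are thus over unlike sets and do not rank the ends. At both ends the counted level of the outer clones was low and that of the innermost clone was near or not far below that of genes in general. The outer clones hold all 18 left-end and 16 right-end members with under 50% of windows unique. Reads of those members are lost before counting, so these medians do not give the level of transcription there.

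**Figure D1:**
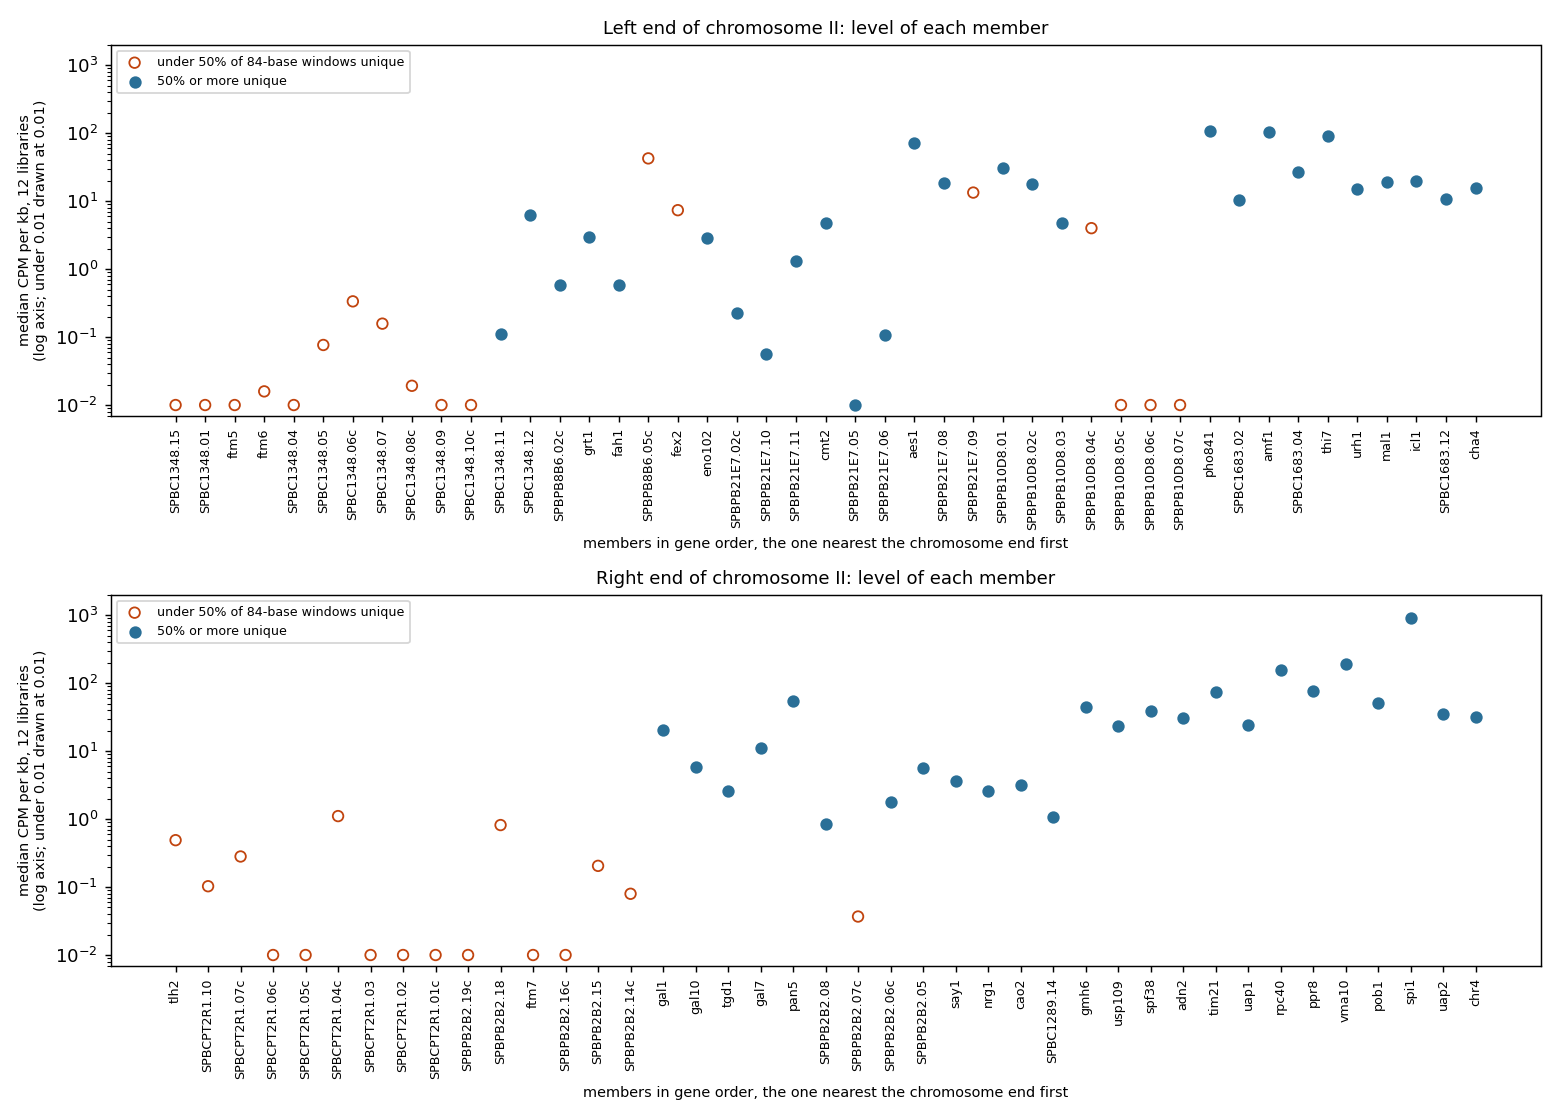
Median level of each member over the 12 libraries in CPM per kb (log axis, values under 0.01 drawn at 0.01), with members in gene order from the chromosome end inward at the left end (above) and the right end (below). Open circles are members with under 50% of 84-base windows unique, which fill the outermost 11 positions of the left end and 15 of the right end, and the innermost members of the right end reach 897 CPM per kb at *spi1*.

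The 4 highest members of the left end per kilobase were *pho841*, annotated as an inorganic phosphate transporter (108 CPM per kb), *amf1*, a transporter (103), *thi7*, a transporter (89.7), and *aes1*, a phenazine biosynthesis family protein (70.4). At the right end *spi1*, the Ran GTPase that drives transport through nuclear pores, was highest at 897 CPM per kb, followed by *vma10*, subunit G of the vacuolar proton pump (188), *rpc40*, a subunit of RNA polymerases I and III (157), and *ppr8*, a PPR repeat protein (77.3). Nearest the chromosome ends, the outermost members with counts in all 12 libraries were the transporter gene SPBC1348.05 at the left end, with 2 to 11 counts, and *tlh2*, a RecQ-type helicase gene, at the right end, with 39 to 269 counts. The transmembrane protein genes *ftm5*, *ftm6* and *ftm7*, which lie in the repeats, had at most 0, 3 and 2 counts in any library.

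A gene was called where edgeR's quasi-likelihood test gave an adjusted p (Benjamini-Hochberg, over all genes tested) under 0.05 and the change was at least 2-fold, a log2 fold change of 1 either way. Of the 86 members, 55 had enough counts to be tested (26 at the left end and 29 at the right end), and 54 in the comparison of *bmc1*Δ with h+ WT. The 31 or 32 that were not tested are for the most part the outer repeats, so that nothing below describes them. Counts of a gene and of another on the opposite strand are uncertain where they overlap, since the strand setting of the count is not given in the sources used here. CPM values are after TMM scaling.

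The 2 wild types differed at more of these genes than either deletion did from its own wild type. In h+ WT against h- WT, 7 of 55 members were called (12.7%, against 2.81% of all 6232 genes tested), 5 higher and 2 lower. At an adjusted p under 0.05 without a fold limit, 16 of 26 left-end members were higher (61.5%) and 2 lower (7.69%), and 8 of 29 right-end members were higher (27.6%) and 3 lower (10.3%). Of all genes 22.2% were higher and 19.3% lower. The median log2 fold change was 0.37 at the left end and 0.03 at the right end, and 0.0017 over all genes. The members share chromosomal neighbourhood and are not independent of each other, so these shares are descriptions.

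At the left end the called members were 2 neighbours, the arylsulfatase gene SPBPB10D8.02c and the pseudogene SPBPB10D8.03, with *cmt2*, a catechol O-methyltransferase gene, and the urea transporter gene SPBPB8B6.02c. The arylsulfatase, an enzyme that releases sulfate from organic compounds, had 42.9, 72.2 and 84.1 CPM in h+ WT, against 17.5, 15.8 and 16.4 CPM in h- WT. Its log2 fold change was 2.00 ± 0.22 (SE, adjusted p = 0.000218), and every h+ WT library lay above every h- WT library. The pseudogene beside it had 10.1, 13.9 and 14.3 CPM in h+ WT, against 3.25, 3.46 and 2.48 CPM in h- WT (log2 fold change 2.06 ± 0.17, adjusted p = 4.658e-05), again with no overlap. SPNCRNA.1307, an annotated RNA on the opposite strand that covers 1720 bases of the arylsulfatase gene, was higher too, with a log2 fold change of 1.61 ± 0.09 (adjusted p = 5.329e-06). Reads from that RNA and from the gene may not be separated in the counts.

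*cmt2* had 10.4, 5.12 and 7.71 CPM in h+ WT, against 2.66, 2.75 and 2.61 CPM in h- WT, a log2 fold change of 1.53 ± 0.23 (adjusted p = 0.00128). The urea transporter gene was at 2.06, 1.37 and 2.54 CPM in h+ WT, against 1.07, 0.764 and 0.791 CPM in h- WT, a log2 fold change of 1.18 ± 0.26 (adjusted p = 0.00688), and without h+ WT replicate 3 it was no longer called. Groups did not overlap for either gene. Smaller differences in the same direction, past the test but under 2-fold, included the transcription factor genes *grt1* (log2 fold change 0.81 ± 0.15) and SPBC1348.12 (0.78 ± 0.14), the enolase gene *eno102* (0.71 ± 0.21), *aes1* (0.67 ± 0.13), *urh1*, for uridine ribohydrolase (0.67 ± 0.06), and *amf1* (0.34 ± 0.04). The left-end members that passed the test and were lower were *pho841* (-0.37 ± 0.05) and the transporter gene SPBPB10D8.04c (-0.32 ± 0.08).

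At the right end the called genes included the one with the largest change of all members tested, *nrg1*, annotated as an amino acid permease. It had 0.564, 1.79 and 3.68 CPM in h+ WT, against 15.8, 16.04 and 15.3 CPM in h- WT, a log2 fold change of -2.95 ± 0.37 (adjusted p = 0.000508). The lowest h- WT library was thus several times the highest of h+ WT, while the h+ WT libraries also differed widely among themselves. SPBPB2B2.18, an uncharacterized gene with no unique window, fell as well, with 5, 7 and 9 counts in h+ WT, against 16, 15 and 21 counts in h- WT (log2 fold change -1.30 ± 0.33, adjusted p = 0.0134). Without h- WT replicate 3 its adjusted p was 0.0593.

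The galactose genes of the right end were higher in h+ WT. *gal10*, for the epimerase that interconverts UDP-galactose and UDP-glucose, had 29.0, 21.5 and 26.7 CPM in h+ WT, against 12.5, 12.03 and 11.9 CPM in h- WT, a log2 fold change of 1.09 ± 0.10 (adjusted p = 0.000114), and it fell just short of 2-fold without h+ WT replicate 1. *gal7*, for galactose-1-phosphate uridylyltransferase, had 18.8, 15.7 and 17.9 CPM in h+ WT, against 11.6, 11.02 and 12.4 CPM in h- WT (0.58 ± 0.08, adjusted p = 0.000831). *gal1*, galactokinase, differed least, at 0.13 ± 0.05 (adjusted p = 0.0478). *tgd1*, a nucleotide-sugar dehydratase gene whose exons overlap those of *gal10* on the opposite strand over 3291 bases, rose by 0.38 ± 0.08. Of the sugar and carbon enzyme genes at both ends together, 8 of 8 tested were higher at an adjusted p under 0.05, against 22.2% of all genes, with a median log2 fold change of 0.32. For *gal1* that rested on single libraries: its adjusted p reached 0.164 without h- WT replicate 2, and was 0.0545 with the replicate number as a block. That of *eno102* reached 0.0893 without h- WT replicate 1. SPNCRNA.1302, an annotated RNA on the opposite strand over 1232 bases of *eno102*, was higher too (1.12 ± 0.11, adjusted p = 0.000123). Its reads and those of *eno102* may not be separated in the counts. Besides the 4 genes of the right end and *eno102*, the 8 genes were the maltase gene *mal1* (0.18 ± 0.04), the isocitrate lyase gene *icl1* (0.23 ± 0.08) and a family 3 glycosyl hydrolase gene, SPBC1683.04 (0.25 ± 0.06).

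In *thc1*Δ against h- WT, 5 of 55 members were called (9.09%, against 1.2% of all 6235 genes tested), of which 1 was at the left end and 4 at the right end. Without a fold limit 3 of 26 left-end members were higher and 3 lower (11.5% each), and 5 of 29 right-end members were higher (17.2%) and 4 lower (13.8%). Of all genes 10.0% were higher and 11.1% lower, so that the shares without the fold limit were near those of genes in general. Medians of the log2 fold change were -0.06 at the left end and 0.04 at the right end, and 0.0029 over all genes. The median over each whole end was thus near 0. Without clone SPBC1289 that of the right end was 0.18, with 10 of 14 members above 0. The calls were single genes in both directions.

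The called member of the left end was *aes1*. It had 29.1, 37.6 and 37.1 CPM in *thc1*Δ, against 72.8, 66.6 and 75.3 CPM in h- WT. The highest *thc1*Δ library was far below the lowest h- WT library, and the log2 fold change was -1.05 ± 0.10 (adjusted p = 0.000372). Leaving out each library in turn moved it from -1.12 to -0.94 and its adjusted p did not exceed 0.00422, so that only the fold limit was missed, without *thc1*Δ replicate 1.

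At the right end *nrg1* had 6.68, 6.40 and 7.90 CPM in *thc1*Δ, against 15.8, 16.04 and 15.3 CPM in h- WT (log2 fold change -1.17 ± 0.09, adjusted p = 0.000135), and it was called in all 6 fits that left out a library, but not in a fit over all 12 libraries. SPBCPT2R1.07c, a pseudogene of the outer repeats with 4.89% of windows unique, had 4, 10 and 4 counts in *thc1*Δ, against 20, 24 and 16 counts in h- WT, a log2 fold change of -1.66 ± 0.39 (adjusted p = 0.0212). It was called in 3 of 6 such fits and lost its call without h- WT replicate 1 or 2 or *thc1*Δ replicate 3. *tlh2*, the helicase gene farthest out on that side, had 1.53, 2.85 and 1.16 CPM in *thc1*Δ, against 3.25, 3.03 and 3.37 CPM in h- WT, and its log2 fold change of -0.81 ± 0.28 did not pass (adjusted p = 0.0788).

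The right-end genes that rose in *thc1*Δ were less evenly shared among its cultures. SPBPB2B2.05, of the class I glutamine amidotransferase family, had 5.46, 12.3 and 14.8 CPM in *thc1*Δ, against 3.67, 3.65 and 3.45 CPM in h- WT (log2 fold change 1.60 ± 0.33, adjusted p = 0.013), and SPBC1289.14, annotated as an adducin, had 1.76, 2.097 and 3.92 CPM in *thc1*Δ, against 1.09, 1.36 and 0.975 CPM in h- WT (1.19 ± 0.32, adjusted p = 0.0351). The groups did not overlap, but replicate 1 of *thc1*Δ was low for the first and replicate 3 high for the second. In fits without 1 library the adjusted p went up to 0.0594 for SPBPB2B2.05 and 0.125 for SPBC1289.14, both without h- WT replicate 3. Neither was called without h- WT replicate 1, 2 or 3, nor SPBC1289.14 without *thc1*Δ replicate 3. SPBPB2B2.06c, a phosphoprotein phosphatase gene next to SPBPB2B2.05, had 1.94, 6.85 and 10.9 CPM in *thc1*Δ, against 4.13, 4.28 and 3.56 CPM in h- WT, so that its *thc1*Δ cultures lay on both sides of h- WT (0.73 ± 0.48, adjusted p = 0.319). This library, *thc1*Δ replicate 1, also had the lowest value of the group for *gal10* (7.98, 19.7 and 20.02 CPM in *thc1*Δ) and the highest for the cysteine transporter gene SPBPB10D8.01 (103, 65.9 and 76.1 CPM).

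The neighbours SPBPB10D8.01 and SPBPB10D8.02c, which overlap by 129 bases on opposite strands, both rose in *thc1*Δ. Neither passed in every fit that left out 1 library. The adjusted p reached 0.071 for SPBPB10D8.01 without h- WT replicate 3 and 0.0525 for SPBPB10D8.02c without h- WT replicate 2. SPBPB10D8.01 had the values just given in *thc1*Δ, against 51.4, 53.6 and 50.5 CPM in h- WT (log2 fold change 0.65 ± 0.14, adjusted p = 0.0151). The arylsulfatase SPBPB10D8.02c had 37.3, 22.1 and 29.6 CPM in *thc1*Δ, against 17.5, 15.8 and 16.4 CPM in h- WT (0.83 ± 0.16, adjusted p = 0.0103), and the antisense RNA over it changed more, by 1.42 ± 0.14 (adjusted p = 0.000461). Other members past the test but under 2-fold were SPBC1348.12 (0.54 ± 0.13, adjusted p up to 0.0908 without h- WT replicate 2), *gal7* (0.42 ± 0.07), *uap2*, a U2 snRNP-associated protein gene (0.32 ± 0.05), and *pan5*, for 2-dehydropantoate 2-reductase (0.20 ± 0.03), which rose. Those that fell were *amf1* (-0.38 ± 0.04), the amine oxidase-like gene *cao2* (-0.36 ± 0.09), the transcription factor gene *cha4* (-0.21 ± 0.05) and the splicing factor gene *spf38* (-0.13 ± 0.04).

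**Figure D2:**
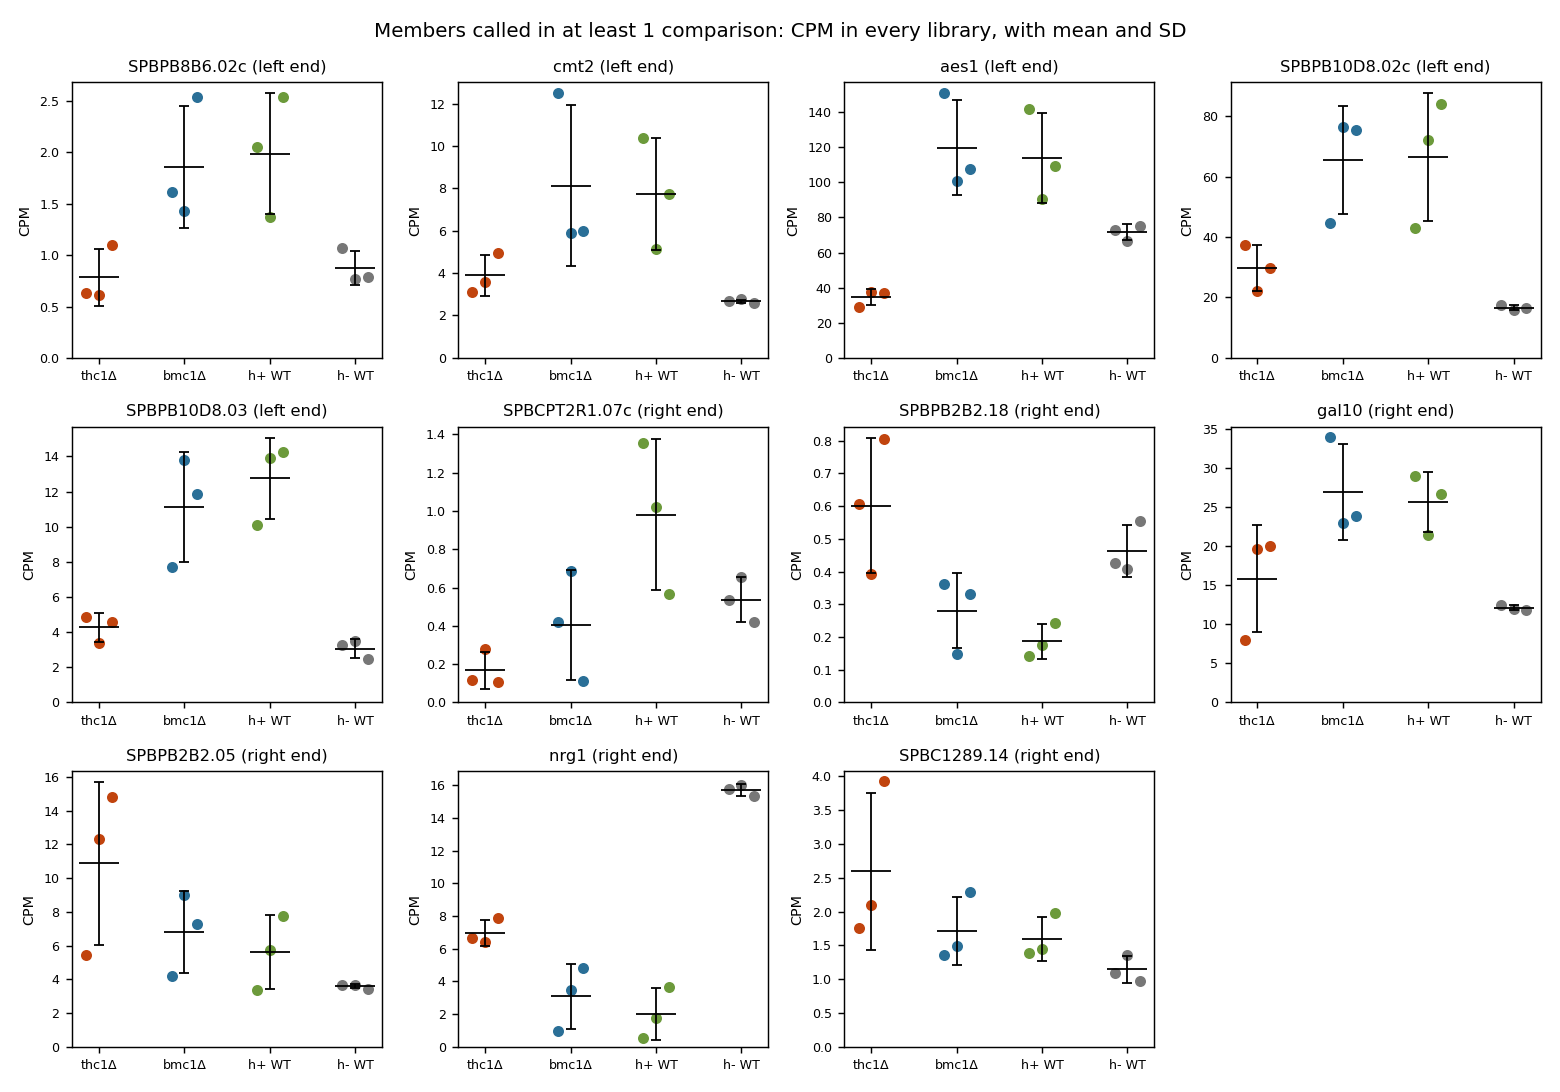
CPM of the 11 members called in at least 1 comparison, in every library (dots, 3 per strain), with the mean and SD as horizontal lines and bars. *nrg1* was highest in h- WT and *aes1* lowest in *thc1*Δ, while the arylsulfatase gene SPBPB10D8.02c and the pseudogene SPBPB10D8.03 were highest in the h+ strains.

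Read against the other wild type, *nrg1* and SPBPB10D8.02c turned round. The comparison of *thc1*Δ with h+ WT shares its libraries with those above, so its values are set side by side and are no separate evidence. In it 7 of 55 members were called (12.7%, against 1.44% of all genes tested), 2 higher and 5 lower, and at an adjusted p under 0.05 the left end had 1 higher and 11 lower of 26 (3.85% and 42.3%), the right end 5 higher and 1 lower of 29 (17.2% and 3.45%), against 5.28% higher and 8.26% lower of all genes. The medians were -0.43 at the left end and -0.05 at the right end. *nrg1*, lower in *thc1*Δ against h- WT, was higher against h+ WT (log2 fold change 1.79 ± 0.46, adjusted p = 0.041), and the arylsulfatase SPBPB10D8.02c, higher against h- WT, was lower against h+ WT (-1.17 ± 0.26, adjusted p = 0.0247). *nrg1* was called in 3 of the 6 fits that left out 1 library and lost its call without *thc1*Δ replicate 2 or 3 or h+ WT replicate 2, and SPBPB10D8.02c was called in 2 of the 6, those without *thc1*Δ replicate 1 and without h+ WT replicate 1. DESeq2's Wald test did not call *nrg1* here, and neither gene passed in the fit blocked by replicate number (adjusted p = 0.0631 for *nrg1* and 0.0874 for SPBPB10D8.02c).

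Of the 3 members called against both wild types, *nrg1* turned and the other two kept the sign of their change. *aes1* was lower in *thc1*Δ than in h+ WT, where it had 142, 90.7 and 109 CPM, by a log2 fold change of -1.72 ± 0.16 (adjusted p = 0.000836). SPBCPT2R1.07c was lower than in h+ WT, where it had 48, 41 and 21 counts, by -2.53 ± 0.46 (adjusted p = 0.0138). Called in this comparison as well were SPBPB10D8.03 (-1.59 ± 0.18), SPBPB8B6.02c (-1.33 ± 0.30) and SPBPB2B2.18 (1.67 ± 0.38). Without the members that have under 50% of windows unique, the calls were 5 of these 7, against 6 of 7 between the wild types and 4 of 5 between *thc1*Δ and h- WT, an alternative chosen after the values were seen.

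In *bmc1*Δ against h+ WT no member was called out of 54 (0.0% of the 6232 genes tested), and none passed an adjusted p of 0.05 (0.0481% of all genes). Without adjustment, 6 members had a p under 0.05, 1 at the left end and 5 at the right end, against 478 of all genes. DESeq2's Wald test and limma-voom gave 0 members at an adjusted p under 0.05 as well. The medians were -0.02 at the left end and 0.07 at the right end. For *aes1*, with 151, 101 and 108 CPM in *bmc1*Δ and 142, 90.7 and 109 CPM in h+ WT, and for *gal10*, with 34.03, 23.0 and 23.9 CPM in *bmc1*Δ and 29.0, 21.5 and 26.7 CPM in h+ WT, the cultures of 1 strain overlapped those of the other. For some other members, such as *mal1* and *gal1*, they did not overlap.

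For some members same-numbered cultures of the h+ strains were alike, and for others, such as *tlh2*, they were not. Replicate 1 of *bmc1*Δ and of h+ WT had less SPBPB10D8.01 (50.2 and 49.5 CPM) than the other replicates (86.1 and 89.8 CPM in *bmc1*Δ, 76.0 and 88.8 CPM in h+ WT), and more *cmt2* (12.5 and 10.4 CPM, against 5.89 and 5.99 CPM in *bmc1*Δ and 5.12 and 7.71 CPM in h+ WT). With the replicate number as a block in the fit, 200 of the 6232 genes passed an adjusted p of 0.05 (3.21%), and among the members only *pho841*. It had 170, 199 and 212 CPM in *bmc1*Δ, against 202, 229 and 230 CPM in h+ WT, lower in 3 of 3 pairs, with a log2 fold change of -0.19 ± 0.03 (adjusted p = 0.0211). *nrg1* was higher in *bmc1*Δ in 3 of 3 pairs, with 0.947, 3.51 and 4.83 CPM, against 0.564, 1.79 and 3.68 CPM in h+ WT, but did not pass with the block (adjusted p = 0.0626) or without it (log2 fold change 0.61 ± 0.69, adjusted p = 0.866).

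At *tlh2* and SPBCPT2R1.07c, of the outermost right-end genes, the largest values of all strains were in h+ WT replicate 1. *tlh2* had 1.09, 1.81 and 3.97 CPM in *bmc1*Δ, against 7.58, 3.36 and 2.60 CPM in h+ WT, and SPBCPT2R1.07c had 15, 23 and 4 counts in *bmc1*Δ, against 48, 41 and 21 counts in h+ WT. The log2 fold changes of -0.97 ± 0.54 and -1.29 ± 0.54 did not pass (*tlh2*, adjusted p = 0.703). Taken as pairs, SPBCPT2R1.07c was lower in 3 of 3, and with the replicate block its adjusted p was 0.0711 and that of *tlh2* 0.311. The negative sign was that of *thc1*Δ against its wild type, but a test that both deletions lower these genes was not made.

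**Figure D3:**
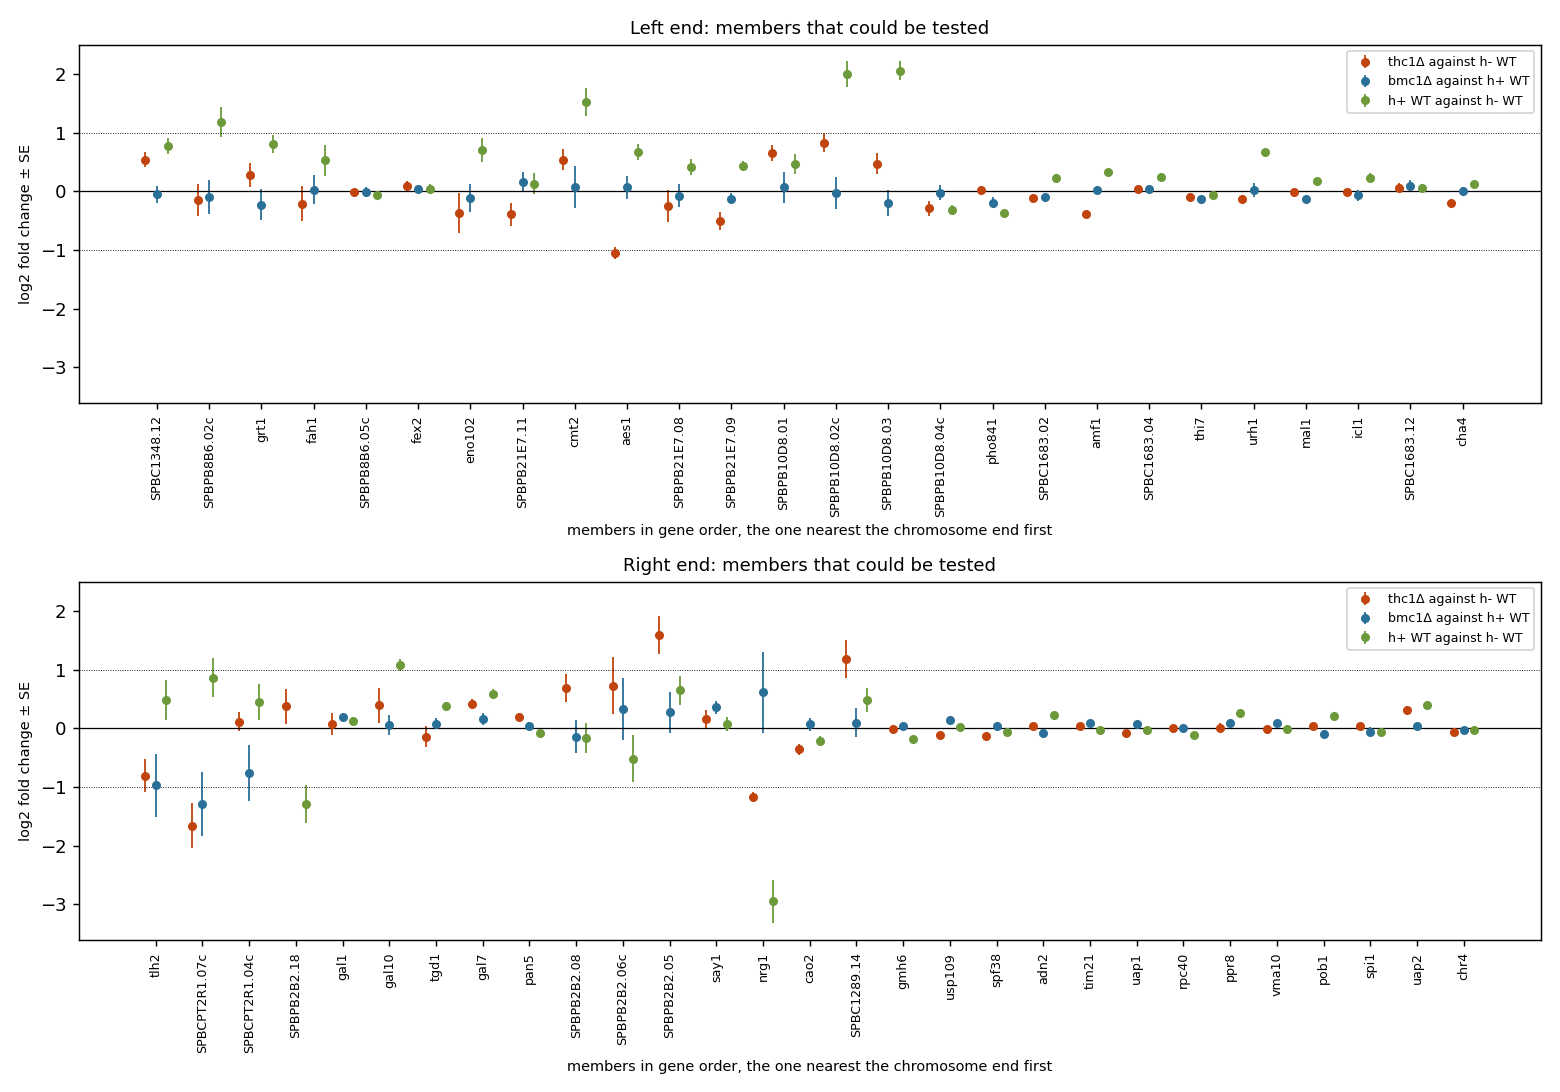
Log2 fold change with its SE of each member that could be tested, in gene order from the chromosome end inward, at the left end (above) and the right end (below), for *thc1*Δ against h- WT, *bmc1*Δ against h+ WT and h+ WT against h- WT. Dotted lines mark a log2 fold change of 1 and of -1. The widest changes are of *nrg1* (-2.95) and of the pair SPBPB10D8.02c and SPBPB10D8.03 (2.00 and 2.06) between the wild types, and the inner right-end members from *gmh6* to *chr4* stay near 0.

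The difference between the effects of the 2 deletions was tested over all 12 libraries. It was called for 1 of 55 members (0.987% of all 6279 genes tested) and passed an adjusted p of 0.05 for 4 (10.4% of all genes). *aes1* differed by -1.12 ± 0.25 (adjusted p = 0.0155), and lost its call without h+ WT replicate 2 or *bmc1*Δ replicate 1. *amf1* differed by -0.40 ± 0.06 (adjusted p = 0.0017), *usp109*, a U1 snRNP-associated protein gene, by -0.25 ± 0.07 (adjusted p = 0.0342), and *uap2* by 0.28 ± 0.06 (adjusted p = 0.0143). For *nrg1* the difference of -1.78 ± 0.69 did not pass (adjusted p = 0.124). With the replicate number as a block in both deletions' libraries, of which only those of *bmc1*Δ and h+ WT were taken as pairs, it was called (-1.83 ± 0.19, adjusted p = 0.000608), and 7 members passed an adjusted p of 0.05, against 17.3% of all genes.

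The summed CPM of the members described the level of each end as a whole. At the left end the sum was 1142 ± 65.8 CPM in *thc1*Δ, 1311 ± 42.1 CPM in *bmc1*Δ, 1353 ± 47.2 CPM in h+ WT and 1193 ± 9.97 CPM in h- WT (SD, n = 3 each). The part of it outside clone SPBC1683, to which *aes1* contributed most over all 12 libraries, was 274 ± 20.9 CPM in *thc1*Δ, 421 ± 17.1 CPM in *bmc1*Δ, 419 ± 39.2 CPM in h+ WT and 271 ± 2.87 CPM in h- WT, so that both h+ strains were above both h- strains in every library. Without *aes1* it was 239 ± 24.6 CPM in *thc1*Δ, 301 ± 43.4 CPM in *bmc1*Δ, 305 ± 47.4 CPM in h+ WT and 199 ± 2.46 CPM in h- WT, and *thc1*Δ replicate 1, at 262 CPM, then lay above replicate 1 of *bmc1*Δ and of h+ WT (251 and 260.1 CPM). For clone SPBC1683 the h+ and h- strains overlapped with all members. Without its top member, *pho841*, that clone summed to 577 ± 15.9 CPM in *thc1*Δ and 636 ± 6.39 CPM in h- WT. In *bmc1*Δ it then summed to 696 ± 5.58 CPM and in h+ WT to 713 ± 0.703 CPM, above both h- strains in every library. The right end summed to 2136 ± 48.2 CPM in *thc1*Δ, 2100 ± 31.3 CPM in *bmc1*Δ, 2094 ± 16.5 CPM in h+ WT and 2082 ± 2.09 CPM in h- WT, and *spi1* gave the largest share of it. Its members outside clone SPBC1289 summed to 205 ± 30.6 CPM in *thc1*Δ, 206 ± 7.60 CPM in *bmc1*Δ, 193 ± 8.86 CPM in h+ WT and 183 ± 0.753 CPM in h- WT, and the lowest of these sums was that of *thc1*Δ replicate 1, at 170 CPM.

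**Figure D4:**
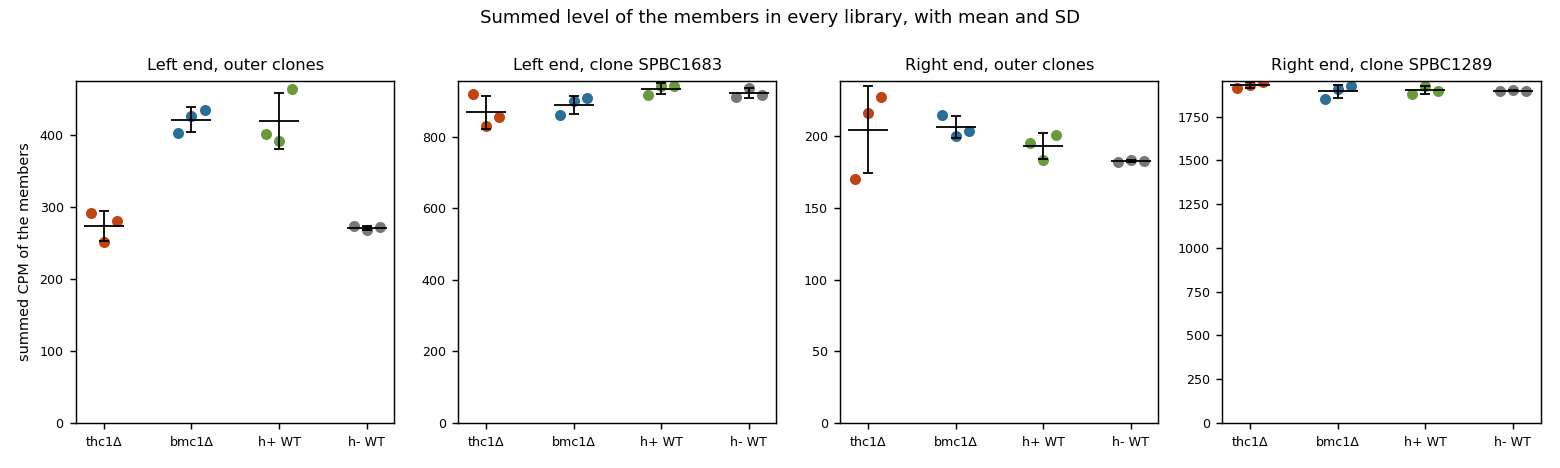
Summed CPM of the members in every library (dots), with the mean and SD of each strain (lines and bars), for the outer clones and the innermost clone of each end, on axes that start at 0. Of the sums drawn, which keep every member, only those of the outer clones of the left end separate the h+ strains (391.9 to 464 CPM) from the h- strains (251 to 291 CPM).

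Between the ends, the shares past the test were higher at the left end than at the right end when the 2 wild types were compared, and the reverse when *thc1*Δ was compared with h- WT. The right-end medians rested in large part on clone SPBC1289: without its 15 members the right-end median was 0.18 in *thc1*Δ against h- WT and 0.25 in h+ WT against h- WT, over 14 members. The housekeeping genes of that clone had small log2 fold changes. Of 11 tested, 1 rose and 1 fell in *thc1*Δ against h- WT, beside 10.0% higher and 11.1% lower of all genes. In h+ WT against h- WT 3 rose and 0 fell, beside 22.2% higher and 19.3% lower of all genes. So few genes do not set the clone apart from genes in general. The 3 were *uap2* (0.40 ± 0.04), *ppr8* (0.27 ± 0.06) and *pob1*, a Boi family gene (0.21 ± 0.05). Between the wild types *spi1*, *vma10*, *rpc40*, *tim21* for mitochondrial protein import, *uap1* for UDP-N-acetylglucosamine synthesis, *spf38*, *usp109* and *chr4* did not pass. In the same clone *adn2*, a transcription factor gene (0.23 ± 0.04), rose and *gmh6*, a galactosyltransferase gene (-0.18 ± 0.03), fell between the wild types.

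By role, few members other than housekeeping and sugar enzymes passed the test in *thc1*Δ against h- WT, too few to give a direction. Of 9 transporters tested, 1 rose and 2 fell, of 7 nitrogen, nucleoside and amino acid enzymes 1 rose and 1 fell. Of 7 other enzymes 2 rose and 1 fell, and of 4 transcription factors 1 rose and 1 fell. Of 4 helicase genes, end families and pseudogenes none rose and 1 fell, and of 5 uncharacterized genes 1 rose and none fell. Of all genes 10.0% were higher and 11.1% lower. By sign alone, whether past the test or not, 4 of the 9 transporters, 1 of the 7 nitrogen enzymes and 5 of the 7 other enzymes were above 0. So were 3 of the 4 transcription factors, 1 of the 4 helicase genes, end families and pseudogenes, and 4 of the 5 uncharacterized genes. Between the wild types 3 of the 4 transcription factors and 3 of the 7 nitrogen enzymes were higher and none lower, while of the 9 transporters 2 were higher and 3 lower, beside 22.2% higher and 19.3% lower of all genes. The fluoride exporter gene *fex2*, the sterol deacetylase gene *say1* and the acetamidase gene *fah1*, which lies wholly within *grt1* on the opposite strand, passed in none of the comparisons.

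A list of 23 genes for heterochromatin and telomere proteins was set beside these values. None was called in any comparison. In *thc1*Δ against h- WT 3 rose, of which the largest change was of *clr2* (0.38 ± 0.09), a subunit of the SHREC silencing complex, and 3 fell, beside 10.0% and 11.1% of all genes. In h+ WT against h- WT 9 rose and 2 fell, from -0.23 for *set2* to 0.57 for *stc1*, which links RNA interference to heterochromatin, beside 22.2% and 19.3% of all genes, and in *bmc1*Δ against h+ WT none passed. Their part in the differences at the chromosome ends was not tested.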

How the data were processed

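RNA of 12 cultures was depleted of ribosomal RNA by the authors, made into stranded libraries, sequenced as single-end reads of 84 bases and aligned to ASM294v2 with STAR 2.5.2b, keeping uniquely aligned reads, and their own test was DESeq2 1.22.2. The deposited values are counts of reads on 7004 genes, not normalized, and the sources used here name neither the counting tool nor its annotation or strand setting. Unique alignment removes reads of repeated genes before counting.

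Counts were fitted in R 4.3.3 with edgeR 4.0.16 (quasi-likelihood test) on the 6 libraries of each comparison, or on all 12 for the difference between the deletion effects, after TMM scaling and filterByExpr (minimum count 10). p-values were adjusted over all genes tested. SE is the log2 fold change divided by the square root of F. CPM are counts per 1000000 after TMM over all 12 libraries. Names, products, gene order, sequences and the share of unique windows come from RefSeq ASM294v3, in which all 86 members matched by locus tag and 143 of the 7004 identifiers did not. The copies were found with blastn 2.17.0+. The script was tested on simulated data. Figures were drawn with matplotlib 3.10.9.

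Library totals were 33.57 to 40.33 M counts. Replicates were separate cultures, and every pair differed by more than sampling noise (chi-square per degree of freedom 2.95 to 68.9). The strains were unequal in this, with 2.95 to 6.99 for h- WT and 20.8 to 68.9 for *thc1*Δ. It was 13.7 to 38.55 for h+ WT and 6.75 to 39.6 for *bmc1*Δ. Each fit estimated 1 spread per gene for all its groups together. Same-numbered libraries of *bmc1*Δ and h+ WT deviated together, with correlations of 0.48, 0.28 and 0.23, so the numbers were taken as pairs there. They did not in the other comparisons, in which no same-numbered pair exceeded 0.1.

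Members, gene lists and tests were chosen with earlier results of these data known. Named were the members called in any comparison, the 4 highest per kilobase at each end, the outermost counted at each end and those with a standard name. Members named outside this rule were chosen after their values were seen. Alternatives were other size factors, library totals, other filters, DESeq2 1.42.0, limma-voom (limma 3.58.1), a fit over all 12 libraries, the replicate block, no fold limit and leaving out each library, and, added after seeing the data, leaving out members with few unique windows or those of clone SPBC1289.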

Additional observations from a re-analysis of the deposited data

Results flagged for a closer look

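For 4 members the effect of deleting *thc1* differed from that of deleting *bmc1* in the test of the difference itself (edgeR's quasi-likelihood test over 12 libraries, adjusted over all genes tested), 7.27% of the 55 members tested, against 10.4% of all genes. The log2 difference was -1.12 for *aes1* (adjusted p = 0.0155), -0.40 for *amf1* (adjusted p = 0.0017), -0.25 for *usp109* (adjusted p = 0.0342) and 0.28 for *uap2* (adjusted p = 0.0143). For *amf1* the values were 137, 144 and 137 CPM in *thc1*Δ, against 180, 180 and 183 CPM in h- WT, and 237, 233 and 226 CPM in *bmc1*Δ, against 239, 220 and 224 CPM in h+ WT. For *uap2* they were 44.2, 49.04 and 46.6 CPM in *thc1*Δ, against 35.8, 37.3 and 38.5 CPM in h- WT, and 51.7, 50.1 and 49.6 CPM in *bmc1*Δ, against 48.9, 49.3 and 48.7 CPM in h+ WT. For *usp109* they were 39.9, 39.7 and 38.6 CPM in *thc1*Δ, against 42.5, 41.3 and 43.0 CPM in h- WT, and 49.9, 45.5 and 47.9 CPM in *bmc1*Δ, against 45.7, 41.0 and 42.6 CPM in h+ WT. The 2 wild types were not alike at *amf1* and *uap2*, which were higher in h+ WT than in h- WT by 0.34 and 0.40 on the log2 scale. The cause of the differences was not tested.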

How the results depend on the processing

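No named member's change reversed where it was called. The calls of *thc1*Δ against h- WT were 3 in place of 5 in a fit over all 12 libraries, in which *nrg1* and SPBCPT2R1.07c were lost, and to between 2 and 7 without 1 library, lowest without h- WT replicate 1 or 2, which left *aes1* and *nrg1*. Between the wild types they were 6 or 7 without 1 library, between *thc1*Δ and h+ WT 4 to 9 (lowest without *thc1*Δ replicate 2), for the difference between the effects 0 to 2 (0 without h+ WT replicate 2) and for *bmc1*Δ 0 throughout. Without the fold limit 15 members passed in *thc1*Δ against h- WT, 29 between the wild types, 18 in *thc1*Δ against h+ WT and 4 for the difference. Without a filter, 7 members were called in *thc1*Δ against h- WT, adding SPBC1348.06c and SPBCPT2R1.10. Between the wild types 9 were called, adding SPBC1348.06c and its copy SPBPB2B2.15, and for the difference 2, *aes1* and *ftm6*. SPBC1348.06c, SPBCPT2R1.10, SPBPB2B2.15 and *ftm6* had at most 15, 6, 10 and 3 counts in any library. Each had under 50% of windows unique, so their calls rest on very few reads. With the replicate block 2 were called for the difference, *aes1* and *nrg1*. The replicate block left the calls of *thc1*Δ against h- WT at 5 and those between the wild types at 7, and gave 6 against h+ WT. The left-end median of *thc1*Δ against h- WT moved to -0.00879 without a filter and -0.0146 with a mean count of at least 50. The left-end median between the wild types was 0.47 without a filter, and that of *thc1*Δ against h+ WT -0.34 without a filter and -0.33 with a mean count of at least 50. Without clone SPBC1289 the right-end medians were 0.18, 0.25, 0.016 and 0.16 in *thc1*Δ against h- WT, h+ WT against h- WT, *thc1*Δ against h+ WT and the difference. Without 1 library, the left-end and right-end medians ranged from -0.0691 to -0.0227 and 0.01085 to 0.0518 in *thc1*Δ against h- WT, from -0.0801 to 0.0131 and 0.0293 to 0.0770 in *bmc1*Δ against h+ WT, from 0.316 to 0.390 and -0.0186 to 0.0659 in h+ WT against h- WT, from -0.495 to -0.346 and -0.0656 to -0.0202 in *thc1*Δ against h+ WT, and from -0.0277 to 0.0395 and -0.0871 to 0.0250 for the difference. So the sign of the right-end median between the wild types is not settled. Scaled by library totals alone, the right-end sum of h- WT was 2079 CPM. The causes of these moves were not tested. Low counts limit the 31 members that had fewer than 20 counts in every library. Some of these lie outside the outer repeats, such as SPBC1348.11, whose windows are all unique.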
